A study of Homo sapiens with 6 samples.

Results

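Cell division runs on a set of genes whose messages peak between the end of DNA synthesis and the separation of the daughter cells. The 46 genes described here are such mitotic and G2/M genes, given as a list of symbols: all 46 were found among the 17297 gene symbols of the count table, and the rule takes them by symbol alone, although the list was drawn up with earlier results of these data known. The cells were LNCaP, an established human prostate cancer line that depends on the androgen receptor. RNA was sequenced from 2 stable LNCaP lines, pBabe-GNA13, which carries wild-type GNA13 cDNA in the retroviral pBabe-puromycin vector and overexpresses Gα13, the α subunit of a heterotrimeric G protein, and pBabe-vector, which carries the empty vector and is labelled WT. Each line was sequenced in 3 biological replicates, each grown for 48 h in RPMI with fetal bovine serum, and cells transduced with pBabe were kept in puromycin. No source used here says whether a line was a pool or a clone, so a difference between the lines may belong to that 1 line.

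Entry into mitosis is driven by CDK1 bound to cyclin A or cyclin B. The kinases PLK1 and AURKA help to switch this complex on, the spindle checkpoint holds chromosomes back until each is attached, and CDC20 then directs the anaphase-promoting complex (APC/C) to destroy securin and cyclin B. Transcription of these genes is held down in resting cells by the DREAM complex and raised in G2 by MYBL2 and FOXM1, which act largely through short promoter elements named CHR, and the levels of MKI67, TOP2A and similar messages are used in prostate cancer as a measure of how many cells are dividing.

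Library totals ran from 33002160 to 40628970 counts. Values below are in CPM, the count of a gene scaled to the size of its library, here with the TMM factor of the library, and levels in a line are given in the order replicate 2, std, replicate 3. The std library is the 1 library of each line whose column heading carries that tag. The std library of pBabe-vector is replicate 1, and that of pBabe-GNA13 is tied to its line only. Libraries that share a replicate number, or the tag, 1 of each line, form a pair. The std libraries were paired by the tag alone, because the number in that heading of pBabe-GNA13 is also that of another library of the line. GNA13 was at 886, 820.1 and 747 CPM in pBabe-GNA13 and at 69.4, 76.7 and 65.4 CPM in pBabe-vector, so both lines carried the message their labels give (11.6-fold, edgeR adjusted p = 9.12e-05). All 9 luminal and LNCaP markers were expressed, with summed levels of 5664 to 9595 CPM, against 2.399 to 8.257 CPM for 4 basal markers. The libraries did not differ by line alone. The pairs of replicate 3 and replicate 2 stood farthest apart, with 42.1% of all genes called between them. The std and replicate 3 libraries of pBabe-GNA13 also held T cell receptor and globin messages that the other libraries held little of or none: TRBC1 was at 23.1 and 27.5 CPM there and at 0 to 0.0238 CPM in the other 4, and HBB at 30.3 and 33.5 CPM there, at 3.05 and 3.08 CPM in the std and replicate 3 libraries of pBabe-vector, and at 0 in both replicate 2 libraries.

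The 46 genes varied together, far more between replicate pairs than between the lines. Their summed level was 2342, 3269.6 and 4655 CPM in pBabe-GNA13 and 2499, 3313 and 5011 CPM in pBabe-vector. Replicate 2 was lowest and replicate 3 highest in both lines, and the lines overlapped. The sum of replicate 3 was 1.99 times that of replicate 2 in pBabe-GNA13 and 2.00 times in pBabe-vector, whereas the sum in pBabe-GNA13 was 0.987, 0.937 and 0.929 times that in pBabe-vector within the std pair, the pair of replicate 2 and that of replicate 3. By line the sums were 3422 ± 1164 CPM (SD, n = 3) in pBabe-GNA13 and 3608 ± 1281 CPM (SD, n = 3) in pBabe-vector. As a share of all counts the 46 genes took from 0.2345% (exact 95% binomial interval 0.2329 to 0.2362%) in replicate 2 of pBabe-GNA13 to 0.4872% (0.4849 to 0.4896%) in replicate 3 of pBabe-vector. The intervals hold for counting error alone, because the reads carried no molecular identifiers and copies of 1 molecule could not be told apart. In RNA from whole cultures, fewer dividing cells and less mitotic RNA in each dividing cell cannot be told apart.

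**Figure D1:**
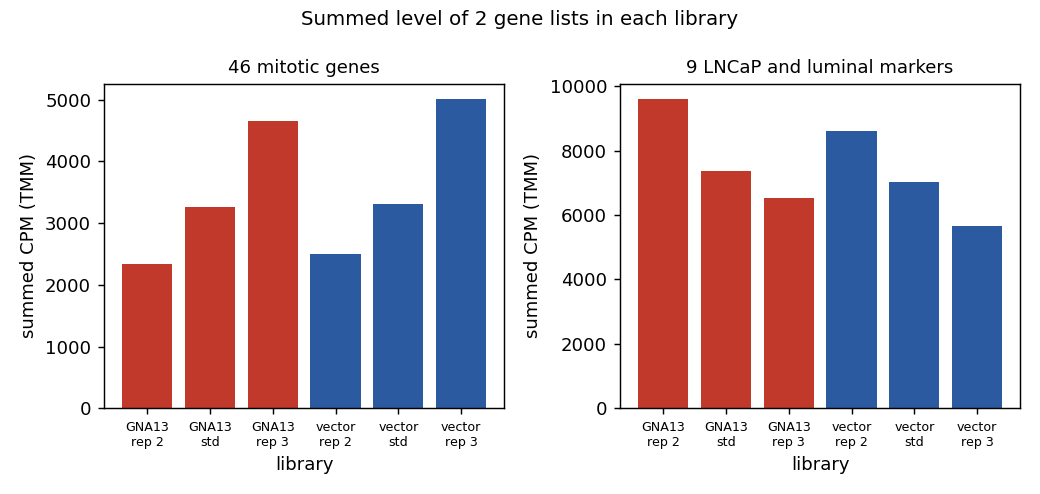
Summed TMM-scaled CPM of the 46 mitotic genes (left) and of 9 LNCaP and luminal markers (right) in each of the 6 libraries, with pBabe-GNA13 in red and pBabe-vector in blue, 1 bar a library and both axes starting at 0. The mitotic sum is lowest in replicate 2 and highest in replicate 3 of each line (2342 to 4655 CPM and 2499 to 5011 CPM), and the luminal sum runs the other way, from 9595 to 6541 CPM and from 8610 to 5664 CPM.

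Every one of the 46 genes was called higher in the pair of replicate 3 than in that of replicate 2 by edgeR's quasi-likelihood test with the line as a covariate and Benjamini-Hochberg adjustment over all 17297 genes, at an adjusted p under 0.05. Of all genes, 42.1% were called in this comparison, 20.7% higher and 21.4% lower, with a median log2 fold change of 0.0. Among the 46 the median was 0.99, or 1.99-fold, from 0.52 for KIF14, a kinesin of the midbody, to 1.41 for CDC20. A rise was seen within each line on its own, for 46 of 46 genes in pBabe-GNA13 (median 0.99) and for 46 of 46 in pBabe-vector (median 0.96), although each of these is 1 library against 1. The std pair lay in between. Against the std pair, the pair of replicate 3 was called higher for 41 of 46 genes (median 0.49, with 32.9% of all genes called, 15.8% higher and 17.1% lower), and the pair of replicate 2 was called lower for 43 of 46 (median −0.47, with 19.6% called, 9.07% higher and 10.6% lower). These 3 comparisons share libraries. A pair holds 1 library of each line, so their p-values do not measure how repeat cultures of a pair would vary. The full order, replicate 3 above std above replicate 2 in both lines, held for 46 of 46 members and for 14.5% of all genes. Both replicate 3 libraries exceeded the other 4 for 45 of 46 members, against 19.6% of all genes, and the exception was KIF14, whose std library of pBabe-GNA13 (39.2 CPM) lay above replicate 3 of pBabe-vector (38.7 CPM). What the replicate numbers stand for (a culture date, a passage, a batch of libraries) is not given in the sources used here, so the pair and any such factor cannot be told apart.

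**Figure D2:**
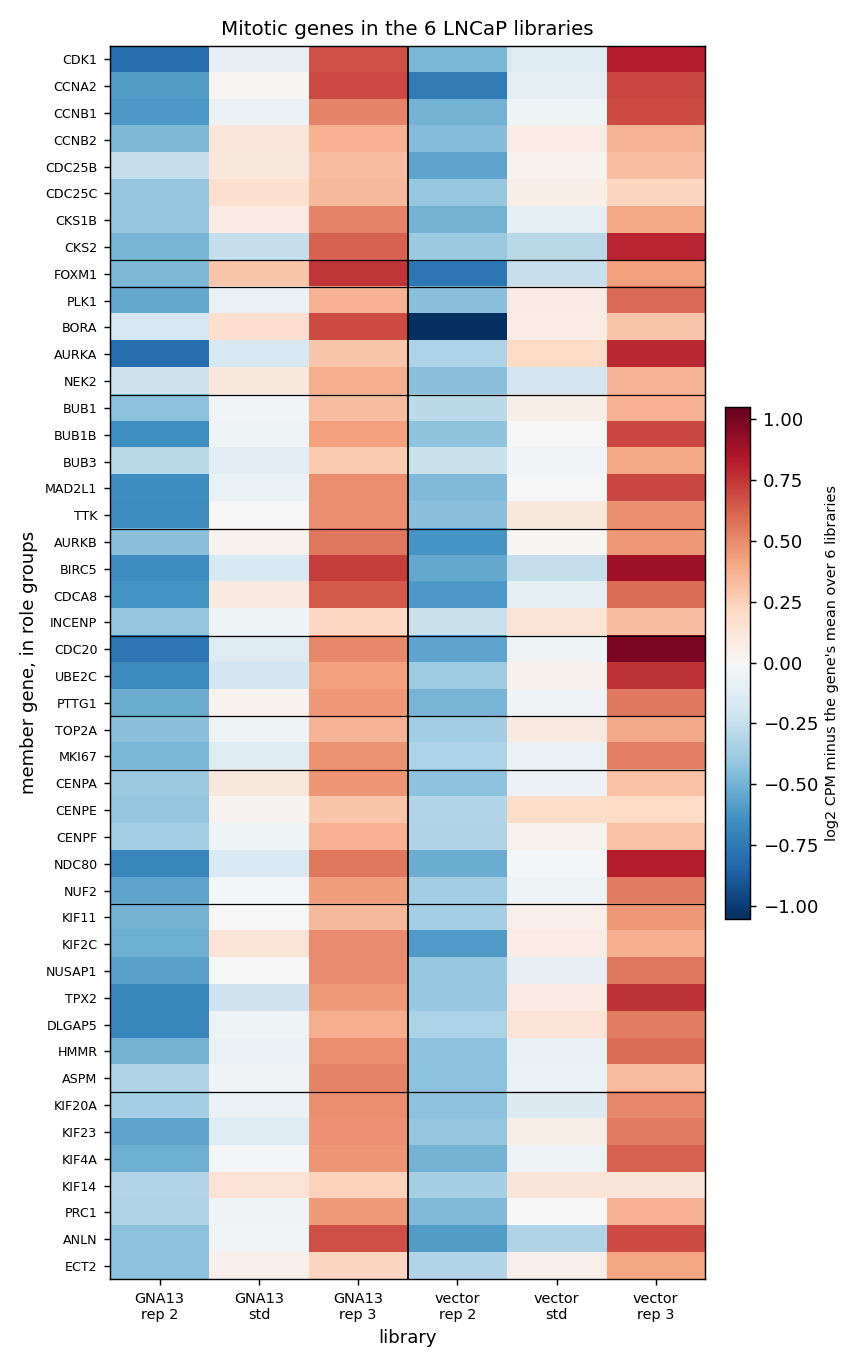
Heat map of log2 CPM minus each gene's mean over the 6 libraries, with the 46 genes in rows, grouped by role between horizontal lines, and the libraries in columns, pBabe-GNA13 left and pBabe-vector right of the vertical line. Blue is below and red above the gene's own mean. Replicate 2 is blue and replicate 3 red for all 46 genes in both lines, with the std library between them.

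Since the 46 genes moved together, their promoters were searched for the elements through which this class of gene is known to be regulated, the CHR (TTTGAA or TTCGAA on either strand, so that TTCAAA also counts) and the CCAAT box (CCAAT, or ATTGG on the other strand). The window ran from 250 bases before to 50 bases after each start in RefSeq (GRCh38.p14). A promoter was found for 39 of the 46 members. A CHR was present in 31 of them (79.5%), against 1696 of 10894 genes of the table with a promoter (15.6%). A CCAAT box was present in 33 (84.6%, against 42.9%), and both in 27 (69.2%, against 8.36%). The promoters of the 6 members of the highest mean level that hold a CHR in the printed stretch, 170 bases before to 20 bases after the start, are shown 5′ to 3′ on the strand of the gene. Capitals mark CHR and CCAAT letters, which run into each other in MKI67 and HMMR.
CDK1 (chr10:60778308-60778497, plus strand): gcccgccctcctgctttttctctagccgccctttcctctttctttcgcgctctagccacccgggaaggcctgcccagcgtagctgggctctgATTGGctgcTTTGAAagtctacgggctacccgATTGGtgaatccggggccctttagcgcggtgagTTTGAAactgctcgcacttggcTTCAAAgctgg
TOP2A (chr17:40417877-40418066, minus strand): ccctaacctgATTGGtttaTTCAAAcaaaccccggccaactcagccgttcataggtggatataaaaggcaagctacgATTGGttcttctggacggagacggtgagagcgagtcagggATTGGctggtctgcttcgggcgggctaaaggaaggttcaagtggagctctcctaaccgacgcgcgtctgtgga
MKI67 (chr10:128126404-128126593, minus strand): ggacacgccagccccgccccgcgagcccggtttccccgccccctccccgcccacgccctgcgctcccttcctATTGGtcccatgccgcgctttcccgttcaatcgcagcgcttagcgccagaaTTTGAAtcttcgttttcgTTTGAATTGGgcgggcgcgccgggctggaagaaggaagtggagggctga
NUSAP1 (chr15:41332711-41332900, plus strand): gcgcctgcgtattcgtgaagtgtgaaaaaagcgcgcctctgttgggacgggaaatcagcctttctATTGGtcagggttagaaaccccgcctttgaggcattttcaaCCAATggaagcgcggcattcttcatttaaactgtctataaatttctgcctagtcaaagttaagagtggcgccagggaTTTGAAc
ECT2 (chr3:172750556-172750745, plus strand): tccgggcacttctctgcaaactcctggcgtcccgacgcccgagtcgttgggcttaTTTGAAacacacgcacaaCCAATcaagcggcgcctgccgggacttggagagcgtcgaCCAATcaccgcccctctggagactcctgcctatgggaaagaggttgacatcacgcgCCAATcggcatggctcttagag
HMMR (chr5:163460462-163460651, plus strand): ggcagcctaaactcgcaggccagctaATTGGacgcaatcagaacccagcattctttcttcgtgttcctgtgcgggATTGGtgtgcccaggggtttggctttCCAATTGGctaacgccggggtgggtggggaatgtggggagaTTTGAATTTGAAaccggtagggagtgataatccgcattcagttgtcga
CDK1, the kinase that starts mitosis, holds 3 CHR matches in this stretch, at −69, −13 and 10 from the start, and 2 CCAAT boxes. MKI67 holds CHR matches at −47 and −29 and HMMR at −28 and −22, while in TOP2A the only match of the stretch lies at −151, in NUSAP1 at 14 and in ECT2 at −115. The letters did not separate the members by their change. The median log2 fold change of replicate 3 against replicate 2 was 0.95 for the 31 members with a CHR and 1.00 for the 8 without, and over all genes with a mean of at least 1 CPM it was 0.05 with a CHR (1393 genes) and −0.0019 without (7964 genes). A match is a description of the letters and not of a bound site.

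Of the cyclin-CDK engine, which starts mitosis, 8 of 8 members were called higher in replicate 3 than in replicate 2, with a median log2 fold change of 1.04. CDK1 (chr10:60778331-60794852, GRCh38) was at 112, 183 and 309 CPM in pBabe-GNA13 and at 139, 177 and 345 CPM in pBabe-vector. Both replicate 3 libraries lay above the other 4 by more than the lines differed, and the lines overlapped. The change of CDK1 between the 2 pairs was 1.39 ± 0.07 on the log2 scale (SE), or 2.62-fold, with an edgeR adjusted p of 2.39e-14. CCNB1 (chr5:69167135-69178245), cyclin B1, the partner with which CDK1 enters mitosis, was at 109, 159.7 and 239 CPM and 118, 161 and 267 CPM, in the same order in both lines. It rose 2.23-fold (1.16 ± 0.07, adjusted p = 8.23e-14). CKS1B, a small CDK subunit that also serves the SCF ubiquitin ligase, was at 30.1, 42.3 and 57.6 CPM in pBabe-GNA13 and 28.3, 37.2 and 52.9 CPM in pBabe-vector, a log2 fold change of 0.92 ± 0.07 between the pairs. Its paralogue CKS2 changed more, by 1.16 ± 0.07 (2.23-fold). CCNA2, cyclin A2, rose 2.56-fold and CCNB2, cyclin B2, 1.77-fold. The phosphatases that remove the inhibitory phosphates from CDK1 were at the low end, with CDC25B 1.65-fold and CDC25C 1.61-fold higher, and CDC25C was not called between replicate 3 and std (log2 fold change 0.16, adjusted p = 0.225).

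FOXM1 (chr12:2857680-2877174), the forkhead factor that activates many G2/M genes, was at 75.8, 128 and 176 CPM in pBabe-GNA13 and at 61.9, 88.9 and 141 CPM in pBabe-vector. Within each pair pBabe-GNA13 was higher, but replicate 2 of pBabe-GNA13 lay below std of pBabe-vector, so the lines overlapped. FOXM1 rose 2.3-fold from replicate 2 to replicate 3 (log2 fold change 1.21 ± 0.07, edgeR adjusted p = 1.26e-13). Its exons overlap ITFG2 on the opposite strand over 15.9% of their length, and whether the counting used strand is not stated.

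All 4 mitotic entry kinases and activators rose between the pairs, with a median of 1.02 on the log2 scale. PLK1, which drives entry into mitosis, centrosome maturation and cytokinesis, was at 56.1, 77.8 and 105 CPM in pBabe-GNA13 and 60.0, 86.4 and 123 CPM in pBabe-vector. Replicate 3 was highest in both lines, and the fold change between the pairs was 1.97 (0.97 ± 0.07, adjusted p = 2.16e-12). AURKA (chr20:56369389-56392337), the centrosomal Aurora kinase that activates PLK1, was at 29.5, 45.5 and 62.4 CPM and 40.7, 59.0 and 88.3 CPM, lower in pBabe-GNA13 within each pair. Its replicate 3 library of pBabe-GNA13 nevertheless exceeded replicate 2 and std of pBabe-vector. AURKA rose 2.14-fold between the pairs (1.10 ± 0.07, adjusted p = 4.91e-13). NEK2, a centrosome-splitting kinase, was at 28.2, 35.7 and 43.1 CPM and 24.3, 28.7 and 42.3 CPM and rose 1.63-fold. BORA, the cofactor through which AURKA acts on PLK1, was read at 0.915 to 3.05 CPM, from 31 counts upward, with an SE of 0.26 around its log2 fold change of 1.07, and 37.0% of its exon length is shared with DIS3.

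The spindle checkpoint, which delays anaphase, had 5 of 5 members called higher in replicate 3 than in replicate 2. BUB1B (BubR1) was at 44.5, 67.2 and 93.6 CPM in pBabe-GNA13 and 51.7, 69.2 and 113 CPM in pBabe-vector, 2.15-fold higher in replicate 3 (1.10 ± 0.07, edgeR adjusted p = 5.03e-13). BUB3 (chr10:123154402-123170467), which holds BUB1 and BUB1B at the kinetochore and is also expressed outside mitosis, was at 121, 136 and 179 CPM and 126, 145 and 196 CPM. Its spread over libraries was narrower than that of BUB1B, with a fold change of 1.52 (0.60 ± 0.06, adjusted p = 1.16e-08). MAD2L1 (MAD2), the inhibitor of CDC20, was at 43.7, 65.6 and 96.3 CPM in pBabe-GNA13 and 49.8, 68.6 and 112 CPM in pBabe-vector and rose 2.22-fold. The checkpoint kinases TTK and BUB1 rose 2.06-fold and 1.62-fold.

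In the chromosomal passenger complex, which corrects faulty attachments and later controls cytokinesis, 4 of 4 members were called higher, with unequal changes. BIRC5 (survivin) was at 76.8, 107 and 199.7 CPM in pBabe-GNA13 and 82.9, 101 and 224 CPM in pBabe-vector, 2.65-fold higher in replicate 3 than in replicate 2 (1.41 ± 0.07, adjusted p = 9.23e-15). Its replicate 3 libraries stood well above the other 4, which ran from 76.8 to 107 CPM. INCENP, the scaffold of the complex, was at 70.9, 91.5 and 109 CPM and 79.9, 104 and 118 CPM, a 1.51-fold change (0.60 ± 0.06, adjusted p = 1.79e-08). The std library of pBabe-vector (104 CPM) nearly reached replicate 3 of pBabe-GNA13 for this gene. AURKB, the kinase of the complex, rose 2.05-fold and CDCA8 (borealin) 2.35-fold.

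The 3 members that feed or meet the APC/C each rose at least as much as the median of the 46. CDC20 (chr1:43358981-43363203), the activator that brings substrates to the APC/C at anaphase, was at 53.2, 82.0 and 128 CPM in pBabe-GNA13 and 61.4, 87.5 and 179.8 CPM in pBabe-vector. Replicate 3 of pBabe-vector stood highest by a wide margin. The change of 1.41 ± 0.08 on the log2 scale (2.66-fold, edgeR adjusted p = 4.57e-14) had the highest estimate of the 46, with BIRC5, CDK1 and CCNA2 within 1 SE of it. UBE2C (chr20:45812576-45816957), the ubiquitin-conjugating enzyme of the APC/C, was at 43.4, 60.0 and 92.7 CPM and 53.2, 71.0 and 117 CPM, 2.17-fold higher (1.11 ± 0.06, adjusted p = 1.4e-13). PTTG1 (securin), a substrate whose destruction frees separase, rose 2.01-fold.

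For chromosome structure, TOP2A (chr17:40388525-40417896), the topoisomerase that disentangles sister chromatids, was at 143, 188 and 249 CPM in pBabe-GNA13 and 151, 207 and 256 CPM in pBabe-vector. It rose 1.72-fold between the pairs (0.78 ± 0.06, adjusted p = 8.08e-11), with replicate 2 lowest and replicate 3 highest in each line. MKI67 (chr10:128096659-128126423), the Ki-67 proliferation marker that coats mitotic chromosomes, was at 107, 136 and 207 CPM and 119, 142 and 215 CPM. Its std libraries lay nearer to replicate 2 than to replicate 3, and the change was 1.87-fold (0.90 ± 0.06, adjusted p = 6.6e-12).

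Kinetochore and centromere genes split by size of change while all 5 were called higher. NDC80, the microtubule-binding core of the outer kinetochore, was at 31.9, 46.2 and 75.6 CPM in pBabe-GNA13 and 35.9, 51.2 and 91.5 CPM in pBabe-vector, 2.46-fold higher in replicate 3 (1.30 ± 0.07, adjusted p = 2.39e-14). Its partner NUF2 rose 1.94-fold. CENPF, a large corona protein, was at 101, 125 and 166 CPM and 104, 132 and 160.2 CPM and rose 1.6-fold (0.68 ± 0.07, adjusted p = 2.07e-09). CENPA, the centromeric histone, rose 1.74-fold. CENPE, a kinesin that brings chromosomes to the spindle equator, rose 1.53-fold, and in pBabe-vector its std library (61.3 CPM) and replicate 3 (61.9 CPM) were nearly level.

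Spindle motors and microtubule-associated proteins had 7 of 7 members called higher and a median of 0.99. TPX2 (chr20:31739271-31801805), which activates AURKA on the spindle, was at 84.1, 116 and 184 CPM in pBabe-GNA13 and 103, 144 and 229 CPM in pBabe-vector. Like AURKA it was lower in pBabe-GNA13 within each pair, with overlapping lines, and it rose 2.21-fold between the pairs (1.15 ± 0.06, edgeR adjusted p = 7.14e-14). NUSAP1, which bundles spindle microtubules near chromosomes, was at 84.3, 125 and 177 CPM and 95.1, 118 and 185 CPM, 2.02-fold higher (1.01 ± 0.07). Its exons share 86.8% of their length with other annotated genes, OIP5 on the opposite strand among them, so its reads may not all be its own. DLGAP5 (HURP), which stabilizes kinetochore fibres, was at 40.9, 63.6 and 85.7 CPM and 52.4, 72.8 and 95.6 CPM and rose 1.95-fold. The motors KIF11 (Eg5), which pushes spindle poles apart, and KIF2C (MCAK), which shortens microtubules, rose 1.78-fold and 1.99-fold, HMMR 2.01-fold and ASPM, a pole protein, 1.75-fold.

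Among the 7 midzone and cytokinesis genes, all called higher, ANLN, the anillin scaffold of the contractile ring, was at 49.6, 65.7 and 107 CPM in pBabe-GNA13 and 44.4, 53.7 and 107 CPM in pBabe-vector. Its replicate 3 libraries were level and far above the rest, a 2.28-fold change (1.19 ± 0.07, adjusted p = 2.14e-13). ECT2, the exchange factor that activates RhoA at the equator, was at 86.1, 121 and 136 CPM and 93.6, 120.4 and 155 CPM and rose 1.62-fold (0.69 ± 0.07, adjusted p = 2.14e-09). The midzone kinesins KIF20A, KIF23 and KIF4A rose 1.85-fold, 1.99-fold and 2.07-fold. KIF14 (chr1:200551497-200620751) changed least (1.44-fold, 0.52 ± 0.08), and it was not called between replicate 3 and std (log2 fold change 0.04, adjusted p = 0.705). PRC1, which bundles midzone microtubules, was read at 1.77 to 3.34 CPM and shares 61.9% of its exon length with other genes, its own antisense gene among them, and its 1.73-fold change had an SE of 0.22.

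Levels per length placed the members on a wide range. In pBabe-vector, per kilobase of exon (Gencode 44, which is later than the release used for counting), CKS2 was highest at 113.5 CPM per kb, followed by CCNB1 at 74.9, UBE2C at 62.5 and CDK1 at 56.4 CPM per kb. All but 2 of the 46 were at 2.79 CPM per kb or more, and those 2, BORA and PRC1, were at 0.549 and 0.445 CPM per kb. BORA and PRC1 share 37.0% and 61.9% of their exon length with other genes, and NUSAP1, at 36.75 CPM per kb, shares 86.8%. How reads of shared stretches were counted is not stated, so these levels are uncertain.

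Between the lines, which is the comparison the study was designed for, 0 of 46 members were called by edgeR without the pair in the fit, where 0.139% of all genes were called (0.116% higher and 0.0231% lower in pBabe-GNA13). No member had an unadjusted p under 0.05 (0 of 46, against 1463 of 17297 for all genes). DESeq2 and limma-trend also called 0 members, where they called 280 of 17118 and 5 of 17297 genes. The median log2 fold change of pBabe-GNA13 against pBabe-vector was −0.07, from −0.45 for AURKA to 0.38 for BORA, with 17 members above 0 and 29 below, beside −0.0013 over all genes. The lines did not separate for any member (0 of 46, against 14.1% of all genes). Standard errors of 0.19 to 0.45 on the log2 scale show how widely the pairs spread within each line. The sign of this median changed with the library left out. The pairs are then unequal between the lines, so the difference between pairs enters the estimate. The median was 0.24 without replicate 3 of pBabe-vector and 0.15 without replicate 2 of pBabe-GNA13. It was −0.25 without replicate 2 of pBabe-vector and −0.30 without replicate 3 of pBabe-GNA13.

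Because the pairs varied together, the lines were also compared within pairs. With the pair as a block, 12 of 46 members were called, where 19.7% of all genes were called. FOXM1 and NEK2 were higher in pBabe-GNA13 (9.32% of all genes were called higher), and PLK1, AURKA, BUB1B, MAD2L1, INCENP, CDC20, UBE2C, NDC80, TPX2 and DLGAP5 were lower (10.4% called lower). The share of 12 in 46 is near that of the table only with both directions pooled. By direction, 10 of 46 were lower, above the share of all genes, and 2 of 46 were higher, below it. The call for FOXM1, AURKA, UBE2C and TPX2 also held without each pair in turn. The number of members called fell to 7 without the pair of replicate 2 and to 7 without that of replicate 3. Of all 17297 genes, 2550 and 2250 were called there. With the block, DESeq2 called 6 of the 12, FOXM1 among them, where it called 1988 of 17118 genes. Blocked limma-trend called 433 of 17297 genes and 3 of the 12, AURKA, UBE2C and TPX2, so the call for FOXM1 was lost there. The changes were small beside those between pairs. FOXM1 was higher by 0.53, 0.29 and 0.32 on the log2 scale in the std pair, the pair of replicate 2 and that of replicate 3 (blocked fit 0.38 ± 0.06, edgeR adjusted p = 1.06e-05). AURKA differed by −0.37, −0.47 and −0.50 in the same order (−0.45 ± 0.06, adjusted p = 8.22e-07). TPX2 differed by −0.30, −0.29 and −0.32 (adjusted p = 7.77e-05), UBE2C by −0.24, −0.30 and −0.33 (adjusted p = 0.000149) and CDC20 by −0.09, −0.20 and −0.49 (adjusted p = 0.00228). AURKA, TPX2, UBE2C and CDC20 thus differed in the direction opposite to FOXM1. NEK2 was at the edge of the threshold (log2 fold change 0.18, adjusted p = 0.05 as rounded). In all 3 pairs 10 members were higher and 18 lower in pBabe-GNA13, so 28 of 46 kept 1 direction, against 48.0% of all genes.

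Genes of some chromosomes shifted together between the lines, and several called members lie on them. FOXM1 is on chromosome 12, whose 620 genes of at least 1 CPM had a median log2 fold change of 0.29 between the lines in the blocked fit, and AURKA, UBE2C, TPX2 and CDC25B are on chromosome 20, whose 337 genes had a median of −0.21. After the genes of each chromosome were centred on their median, FOXM1 went from 0.38 to 0.09 (adjusted p = 0.319), UBE2C from −0.29 to −0.09 (0.277) and TPX2 from −0.30 to −0.10 (0.199), so that 3 of the 4 calls that held without each pair were lost. AURKA was still called, at −0.24 (adjusted p = 0.003). CDC20, NDC80 and DLGAP5, on chromosomes without such a shift, were called with and without centring (−0.29, −0.19 and −0.19 when centred). CDC25B, ANLN, CKS2 and BUB1 were called when centred and not in the blocked fit of all 6 libraries without centring (ANLN was called there once the pair of replicate 3 was left out), CDC25B at 0.33 (adjusted p = 0.000351) and CKS2 at −0.20 (0.0111). In all 8 of 46 were called then, 4 of them also called without centring, against 14.9% of the 14383 genes tested.

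**Figure D3:**
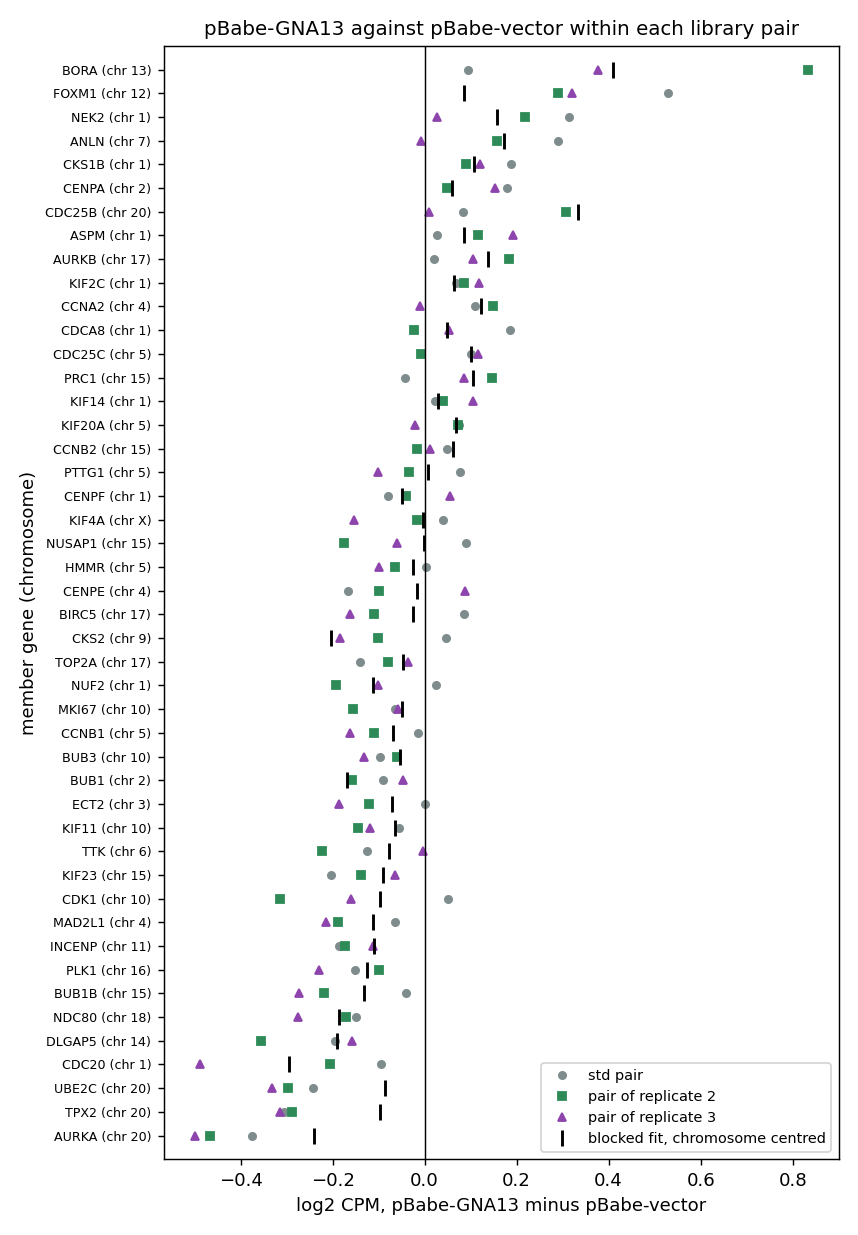
Log2 CPM of pBabe-GNA13 minus pBabe-vector for each of the 46 genes within the std pair (grey circles), the pair of replicate 2 (green squares) and that of replicate 3 (purple triangles), 1 library against 1 each. Genes are ordered by the blocked edgeR estimate without centring, with the chromosome of each in brackets. Black bars give the blocked fit with each chromosome centred. The points run from −0.50 (AURKA, replicate 3) to 0.83 (BORA, replicate 2), and centring moves FOXM1, AURKA, UBE2C and TPX2 toward 0 and CDC25B and CKS2 away from it.

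Other genes of the cell cycle, in lists that hold none of the 46, were read in the same fits, where 20.7% of all genes were called higher and 21.4% lower in replicate 3 than in replicate 2. Of 55 other mitotic genes, 52 were called higher and 1 lower in replicate 3 than in replicate 2 (median 1.02), with ZWINT, of the kinetochore, at 66.0, 105 and 181 CPM in pBabe-GNA13 and 76.8, 102 and 199 CPM in pBabe-vector. The rise was not limited to mitosis. Of 36 genes of the G1/S transition and DNA replication, 34 were called higher and 0 lower, with a median of 1.20, among them MCM5 of the replicative helicase (1.47 ± 0.07) and the thymidylate synthase gene TYMS (1.34 ± 0.07). Only 2 of the 30 promoters found for that list held a CHR (6.67%), while 21 held a CCAAT box (70.0%). The CHR was not particular to the 46, as 28 of 43 promoters of the other mitotic genes (65.1%) and 6 of 7 of condensin (85.7%) held it. The share was 29.4% for the APC/C list, 45.5% each for the cohesin and DREAM lists and 8.33% for the brakes and p53 targets. All 8 condensin subunits were called higher (median 0.91). Cohesin and separase genes changed less (11 higher and 1 lower of 12, median 0.31), and so did the APC/C core and its regulators (9 higher and 1 lower of 17, median 0.25), although the APC/C inhibitor FBXO5 rose by 0.97 ± 0.08. Of 12 DREAM and MMB genes 7 were higher and 2 lower, and MYBL2, the MMB activator of G2/M genes, was at 70.5, 117 and 179 CPM and 91.5, 126 and 219 CPM (1.30 ± 0.07, edgeR adjusted p = 3.37e-14). Among 16 cell cycle brakes and p53 targets 8 were lower and 3 higher (median −0.20), the latter near the share of all genes. CCNG2, a cyclin of resting cells, fell from 191 to 65.0 CPM in pBabe-GNA13 and from 161 to 53.4 CPM in pBabe-vector, and the p53 target TP53INP1 changed by −0.93 ± 0.06, while CDKN3, a phosphatase that is itself expressed in mitosis, rose by 1.32 ± 0.09.

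Between the lines, edgeR called 0 genes of each of these lists without the block. The number with an unadjusted p under 0.05 was 5 of 16 for the brakes and p53 targets, 1 for the APC/C list, 1 for the G1/S list and 0 for the others, beside 1463 of 17297 for all genes. With the block, where 9.32% of all genes were called higher and 10.4% lower, 7 of the 16 brakes and p53 targets were called higher in pBabe-GNA13 and 2 lower (median 0.21), BTG2 at 0.65 ± 0.06, MDM2 at 0.52 ± 0.05 and CDKN1A, the p21 inhibitor of CDKs, at 0.46 ± 0.05. These values were not centred by chromosome, so they include any shift of the chromosome a gene lies on. Of the 55 other mitotic genes, 4 were then called higher and 8 lower, and of the 36 of the G1/S list 4 higher and 3 lower, both lists near the 19.7% of all genes called.

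Messages of other kinds moved with the pairs too. The 9 luminal and LNCaP markers ran opposite to the mitotic genes, with sums of 9595 and 8610 CPM in the replicate 2 libraries, 7378 and 7029 CPM in the std libraries and 6541 and 5664 CPM in the replicate 3 libraries (pBabe-GNA13 first). The T cell receptor messages TRBC1 and TRBC2 and the globin messages were high in std and replicate 3 of pBabe-GNA13. Of a list of 10 T cell genes only 3 were in the count table. The other gene found, CD7, ran the other way. It was at 0.3525 CPM in replicate 2 of pBabe-GNA13 and at 0.0535 and 0.116 CPM in its std and replicate 3 libraries. In pBabe-vector HBB also differed between the pairs, at 0 in replicate 2 and 3.05 and 3.08 CPM in std and replicate 3. Of the immune markers, CD14 and CD79A stayed under 0.206 CPM in all 6 libraries, and PTPRC and CD3E were not in the count table. Of 4 endothelial markers, only VWF was in the count table. It was at 30.5, 25.9 and 14.6 CPM in pBabe-GNA13 and at 20.6, 19.1 and 6.54 CPM in pBabe-vector. Of 6 neuroendocrine markers, 2 were in the count table. ENO2 was at 58.1, 24.6 and 33.7 CPM and 58.9, 34.0 and 52.2 CPM, and SYP at 2.53 to 4.46 CPM. The 5 fibroblast markers summed to 12.28 to 25.46 CPM, most of it COL1A1. COL1A2, a fibroblast collagen, was at 2.57 and 2.53 CPM in std and replicate 3 of pBabe-GNA13, at 0 in both replicate 2 libraries and at 0.0477 and 0.0935 CPM in std and replicate 3 of pBabe-vector. The basal keratin KRT5 was at 3.08 and 3.72 CPM in std and replicate 3 of pBabe-GNA13, at 0.572 and 0.592 CPM in those of pBabe-vector and at 0 in both replicate 2 libraries. TP63, KRT15 and DCN were also at 0 there, and at most at 0.174 CPM elsewhere. In contrast, KRT14, COL1A1, LUM and PDGFRB were read in both replicate 2 libraries. KRT14 was at 4.495, 4.26 and 4.39 CPM in pBabe-GNA13 and at 2.48, 1.81 and 1.81 CPM in pBabe-vector. COL1A1 was at 17.2, 22.0 and 16.4 CPM and 23.1, 23.1 and 11.5 CPM. The part of these messages in the differences between pairs or lines was not tested.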

How the data were processed

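RNA-seq counts per gene symbol were analysed from 6 libraries of 2 LNCaP lines. The counts were deposited by the authors as whole numbers: reads were assessed with FastQC 0.11.7, mapped with STAR to the Gencode 38 transcriptome and summed per gene with featureCounts, and the TMM and limma steps of the study's own analysis had not been applied to them. Use of strand, handling of reads that fit several genes, and what the tag std stands for are not given in the sources used here. All 6 columns were used and 0 were left out.

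All 17297 genes entered, unfiltered, a TMM-normalized quasi-likelihood fit in edgeR 4.0.16 (glmQLFit and glmQLFTest, run in R 4.3.3). After Benjamini-Hochberg adjustment, a p under 0.05 made a call. The lines were compared without the pair as a term; the study's methods name TMM and limma and give no model terms. The pairs were compared with the line as a covariate. Log2 CPM used a prior count of 2. Each p-value measures the spread between these libraries that the terms of its fit leave. Where the pair is a term, the spread between pairs is not part of it. The depth of 33002160 to 40628970 counts left all members but BORA and PRC1 with at least 395 counts in each library.

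Pairing was checked by correlating deviations from the line means across 14059 genes with a mean of at least 1 CPM, which are not independent replicates. Libraries of the same pair gave Pearson's r of 0.603 (std), 0.729 (replicate 2) and 0.841 (replicate 3), and libraries of different pairs −0.692 to 0.058, so the pairs were used as a block.

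The 46 members, their role groups, the comparison lists and the markers were chosen with earlier results of these data known, and the T cell and erythroid lists after their values were seen. Values in every library were given for the 2 members of the highest mean and the member of the smallest p in each role group, for FOXM1, CCNB1, MKI67, TOP2A and BUB3, and for members called with the block. From each other list at most the 3 genes of the smallest p in a comparison were named for that comparison. KIF14, TRBC1, TRBC2, CD7 and HBB are named for their values, as are the basal, fibroblast, immune, endothelial and neuroendocrine markers. Symbols were matched to Gencode 44 (GRCh38) for 14397 of 17297 genes (83.2%), all 46 members included. The scripts were tested on simulated counts. Alternatives were DESeq2 1.42.0, limma-trend (limma 3.58.1), relative log expression size factors, the newer quasi-likelihood method, filterByExpr, a GC content and gene length correction, centring of each chromosome, the block, and leaving out each library or pair. Combinations of the block with another tool or filter were chosen once results had been seen. Figures were drawn with matplotlib 3.10.9.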

Additional observations from a re-analysis of the deposited data

How the results depend on the processing

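Between the lines, the count of members called was 0 under each alternative without the block, and with the replicate block it was 12. Of all 17297 genes, 3407 were called with the block. With the block it was 12 after GC content and gene length correction, 11 with relative log expression size factors, 11 with filterByExpr, 10 with the newer quasi-likelihood method, 8 with each chromosome centred, 6 with DESeq2, 3 with limma-trend, and 7 to 10 with 1 pair left out. By construction the block takes the spread between pairs out of the error. The tool and filter combined with the block were chosen after seeing the data.

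The median log2 fold change of the 46 genes between the lines ran from −0.30 to 0.24 with 1 library left out and from −0.09 to −0.04 with 1 pair left out of the blocked fit. The fits with 1 library left out had no block and held unequal pairs, so the difference between pairs enters their estimates. A turn of direction there is therefore no test of the difference between the lines. Single genes turned direction with 1 library left out, over these lowest and highest values: CDK1 −0.58 to 0.35, CCNB1 −0.43 to 0.28, CKS1B −0.12 to 0.41, PLK1 −0.42 to 0.12, BUB1B −0.48 to 0.18, BUB3 −0.27 to 0.10, MAD2L1 −0.48 to 0.21, BIRC5 −0.56 to 0.47, CDC20 −0.69 to 0.24, UBE2C −0.63 to 0.073, TOP2A −0.30 to 0.11, MKI67 −0.38 to 0.20, CENPF −0.22 to 0.15, NDC80 −0.60 to 0.23, NUSAP1 −0.33 to 0.28, TPX2 −0.66 to 0.059, DLGAP5 −0.49 to 0.021, ANLN −0.24 to 0.59 and ECT2 −0.27 to 0.094. NUSAP1 was also at 0.007 with each chromosome centred and −0.11 to 0.009 with 1 pair left out of the blocked fit, and CENPF at −0.05 to 0.012 there. Of the genes listed, only NUSAP1 and CENPF also turned with 1 pair left out of the blocked fit. UBE2C was at −0.312 to −0.259 and TPX2 at −0.315 to −0.287 there. FOXM1, AURKA, INCENP and NEK2 did not change sign under the alternatives run.

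Between the pairs, 46 of 46 members stayed higher in replicate 3 than in replicate 2 under each alternative, with a median of 0.97 to 1.01 with 1 library left out and 0.95 after GC content and gene length correction. For replicate 3 against std the median was 0.47 to 0.55 and the count 36 to 41 with 1 library left out. For replicate 2 against std the median was −0.49 to −0.43 with 1 library left out and −0.41 after the GC content and gene length correction, and limma-trend called 0 members there, with 44 at an unadjusted p under 0.05 and 0 of all 17297 genes called, where edgeR called 43 members and DESeq2 41. The cause was not tested. With each pair made of 2 libraries, and 1 library of a pair left out, the lone library was assumed to vary like the others.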
